A study of Rattus norvegicus with 12 samples.

Results

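The transcripts of the mitochondrial genome were examined in 12 left ventricles of adult wild-type Groningen rats, with 1 library from each. The RSD group held 6 rats exposed to repeated social defeat, in which an intruder is placed with a dominant resident, for 8 days, and the CTR group held 6 unhandled rats. All are labelled male except RSD 40. All 12 hearts were frozen, punched in the left ventricle and read as 3' end libraries, so that a read marks the neighbourhood of a poly(A) stretch and the number of reads does not grow with transcript length. The deposited gene table of 32735 rows gives CPM, the reads of a row scaled to a common library total. The mitochondrial rows are those whose symbol starts with AY172581. or with Mt- followed by nd, co, atp or cyb. There were 37 of them, 13 with Mt- symbols and 24 with AY172581 symbols.

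The mitochondrial genome is a small circular DNA present in many copies per cell. It encodes core subunits of respiratory complexes I, III and IV and of the ATP synthase, and the ribosomal and transfer RNAs with which mitochondria translate them. Both strands are transcribed as long precursors, the transfer RNAs are cut out, and most of the released messenger RNAs receive short poly(A) tails. Cardiac muscle is among the tissues richest in mitochondria. The Mt- symbols name the protein genes. The sources used here do not say which RNA each AY172581 row stands for, so these rows are called by their symbols only.

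Libraries held 2062798 to 3731108 reads, and 10818 to 11955 genes had a read. The library labelled RSD 40 carries the sex label female, while the Y-linked transcripts Eif2s3y and Kdm5d had 7.36 and 10.73 CPM in it, against 2.49 to 11.02 and 3.39 to 12.58 CPM in the other 11 libraries. It was kept, and it is named where a count of libraries includes it. Cardiomyocyte markers took 5.65% ± 0.386 of CPM in RSD and 5.88% ± 0.311 in CTR (SD, n = 6 each), and the 11 marker rows found all had reads. In whole tissue, fewer cells of a type and less RNA per cell cannot be told apart. Reads of nuclear copies of mitochondrial sequence, of overlapping reading frames and of the opposite strand cannot be separated from the values below.

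The 37 rows together took 54.8% ± 3.08 of total CPM in RSD and 53.6% ± 2.74 in CTR (SD, n = 6 each). Lowest, median and highest were 49.7%, 54.7% and 58.4% in RSD, against 50.2%, 53.0% and 57.0% in CTR, so that the ranges overlapped nearly throughout. A few rows made up most of this share. Row AY172581.24 (ENSRNOG00000043866) alone took 21.6% of total CPM on average over the 12 libraries. The next most abundant rows were Mt-atp6 with 8.43%, Mt-co2 with 4.40%, AY172581.9 with 4.25%, Mt-nd1 with 3.72%, Mt-nd2 with 3.11%, Mt-cox3 with 2.71% and Mt-cyb with 2.68%. These 8 rows summed to 50.9% of total CPM. The other AY172581 rows, 22 in number, took 0.121% ± 0.0338 in RSD and 0.115% ± 0.0595 in CTR. All these shares are of reads, not of molecules.

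**Figure D1:**
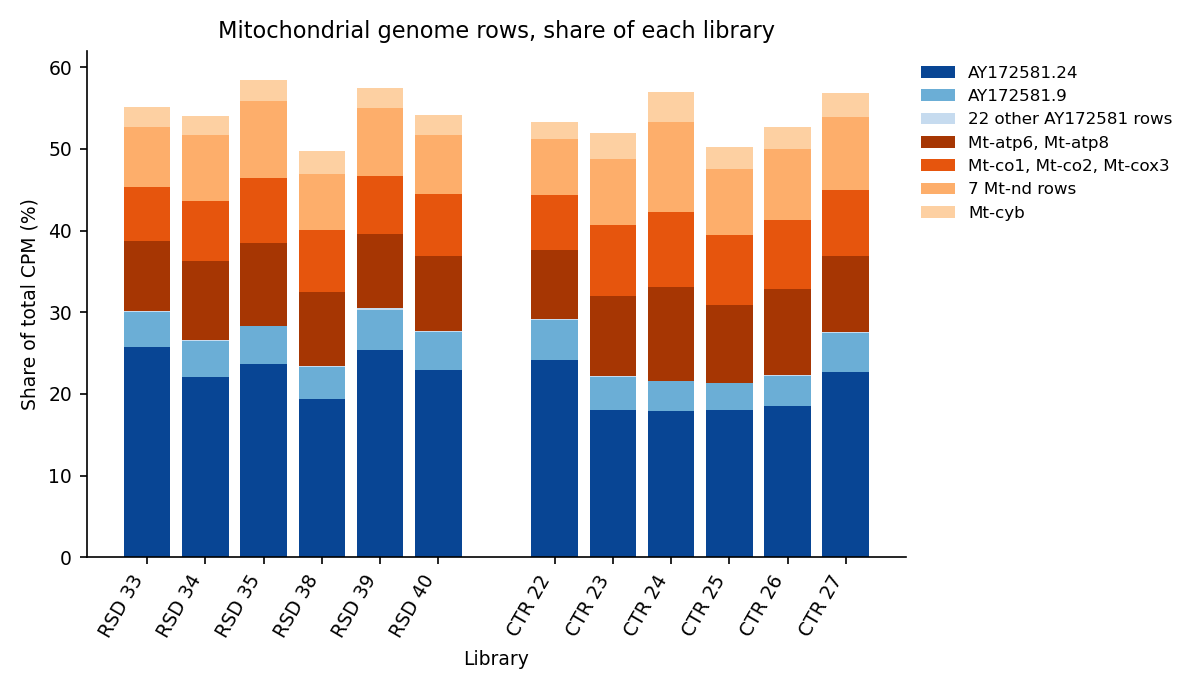
Share of total CPM (%) taken by mitochondrial genome rows in each library, RSD libraries left and CTR libraries right, stacked by row or respiratory complex. The whole stack lies between 49.7% and 58.4%, while AY172581.24, the lowest block, ranges between 17.9% and 25.7%.

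Of the 37 rows, 31 had at least 1 read and 6 had none. The 6 rows without a read were AY172581.5, AY172581.7, AY172581.11, AY172581.16, AY172581.17 and AY172581.23. A count of 0 allows up to 3 reads in a library, or 0.804 to 1.45 CPM, counting error only. Row AY172581.10 had 1 read in all, in RSD 38, and AY172581.13 had 17 reads spread over 5 libraries. A filter on low values (edgeR's filterByExpr on the recovered reads) left 26 rows for testing, 12 of the 13 Mt rows and 14 of the 24 AY172581 rows. Besides the 8 rows just named, AY172581.4, AY172581.6 and Mt-nd4 fell below it.

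Mt-nd4, which encodes a proton-pumping core subunit of complex I, was nearly unread. Its lowest, median and highest values were 0.65, 1.065 and 1.84 CPM in RSD, against 0.65, 1.55 and 2.01 CPM in CTR, which is 2 to 6 reads per library and 46 in all. Mt-nd4l, whose reading frame precedes and overlaps that of Mt-nd4 on the same messenger RNA in mammals, had 31950 reads. The other 5 complex I rows had 36211 reads (Mt-nd6) to 1305804 reads (Mt-nd1).

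None of the 26 tested rows differed between RSD and CTR at adjusted p 0.05 in limma on log2(CPM + 1). Over all 7511 genes tested 2 passed, or 0.0266%. At an unadjusted p under 0.05 there was 1 row of the 26, Mt-nd4l, against 8.36% of all genes tested. edgeR, DESeq2 and limma-voom on the recovered reads also called 0 of the 26, with 2, 2 and 4 rows at an unadjusted p under 0.05. These were AY172581.24 and Mt-nd4l in edgeR, AY172581.24 and Mt-co2 in DESeq2, and AY172581.24, AY172581.9, Mt-co2 and Mt-nd4l in limma-voom. Of all 7511 genes tested, 611, 607 and 578 had an unadjusted p under 0.05 in edgeR, DESeq2 and limma-voom. The deposited CPM of RSD and CTR overlapped for all 26 rows; groups that do not overlap made up 0.32% of all genes tested.

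The signs of the fold changes were split by kind of row. Of the 14 tested AY172581 rows, 14 had a log2 fold change (RSD over CTR) above 0, with a median of 0.22 and a range of 0.03 to 0.43, while 50.6% of all genes tested lay above 0 and their median was 0.00. Of the 12 tested Mt rows, 10 lay below 0, with a median of −0.12, against 49.4% of all genes. The rows share their libraries and the total to which CPM adds up, so these counts are a description of the 12 libraries. The 14 became 13 with CPM as deposited, without CTR 22 or without RSD 35. It became 12 with edgeR, with DESeq2, without CTR 25 or without CTR 26. It became 11 without CTR 24 or without RSD 40, and 8 of 13 tested without both CTR 22 and RSD 40. The 10 became 12 with CPM as deposited, without RSD 34 or without RSD 35, and 11 without CTR 23, CTR 25 or RSD 39. It became 9 without CTR 26, CTR 27 or RSD 40, and 8 without CTR 24 or RSD 38. Without both CTR 22 and RSD 40 it stayed 10.

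**Figure D2:**
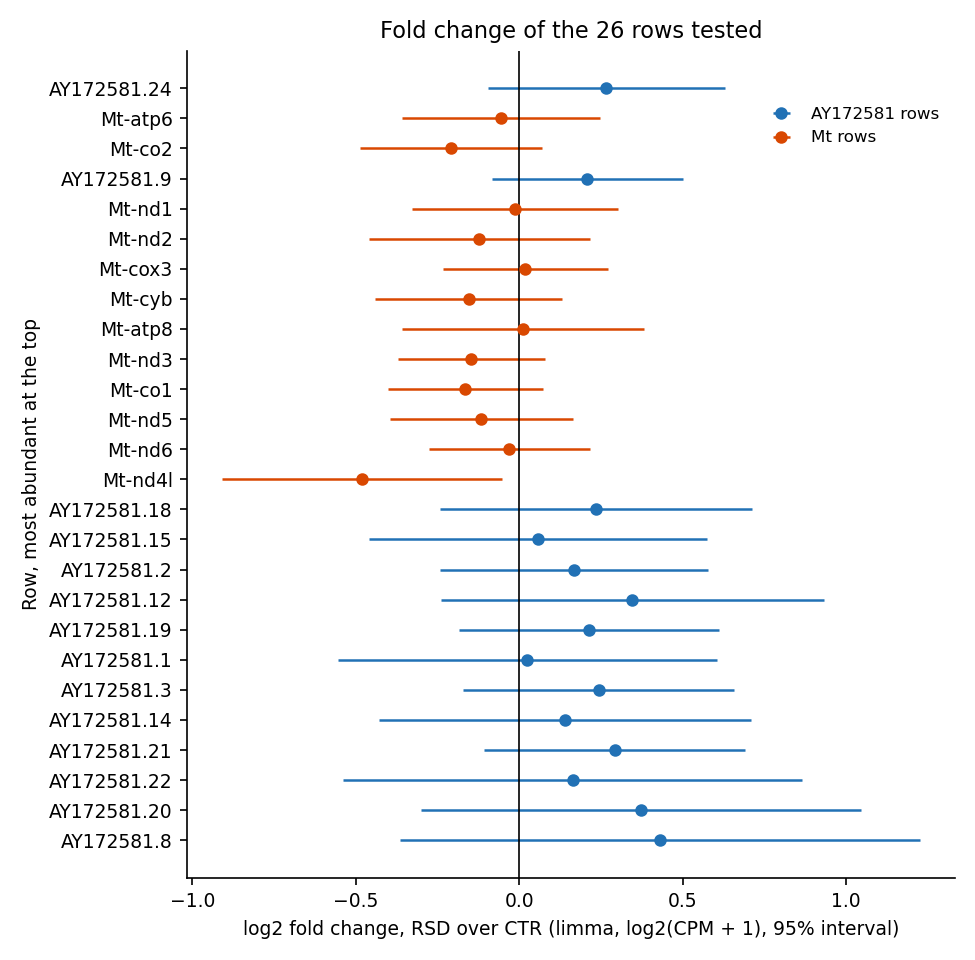
Log2 fold change, RSD over CTR, with 95% interval from limma for the 26 tested rows, most abundant at the top. Every AY172581 row lies above 0 in this fit and 10 of 12 Mt rows below it, and all intervals but that of Mt-nd4l include 0.

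Row AY172581.24 had lowest, median and highest shares of 19.4%, 23.3% and 25.7% of total CPM in RSD, against 17.9%, 18.3% and 24.2% in CTR. Of the CTR libraries, 4 stood close together at 17.9% to 18.5%, below every RSD library, and CTR 27 (22.7%) and CTR 22 (24.2%) lay within the RSD range. The lowest RSD library was RSD 38. The means were 23.2% ± 2.32 in RSD and 19.9% ± 2.80 in CTR (SD, n = 6 each), a difference of 3.29 percentage points with an exact two-sided permutation p = 0.0541. As a share of mitochondrial reads alone the row took 42.3% ± 2.77 in RSD and 37.1% ± 4.91 in CTR, a difference of 5.15 points (exact permutation p = 0.0541; adjusted p = 0.0541 over these 2 measures, chosen with earlier results known).

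Without CTR 22 the difference in the share of total CPM was 4.15 points (exact permutation p = 0.0152), without CTR 27 3.85 points (exact p = 0.0368) and without RSD 38 4.04 points (exact p = 0.0281). Leaving out any of the other 9 libraries gave 2.78 to 3.51 points and exact p between 0.0649 and 0.11. In limma, where each library is scaled by TMM factors, its log2 fold change was 0.27 (95% interval −0.10 to 0.63, adjusted p = 0.713). On the recovered reads its adjusted p was 0.552 in edgeR, 0.526 in DESeq2 and 0.554 in limma-voom, with an unadjusted p under 0.05 in all 3, and over all alternatives the adjusted p ran between 0.447 and 0.862. Markers of other cells were also compared, and their part in this result was not tested. Red blood cell markers (5 rows, all with reads) took 1.10% ± 0.853 of CPM in RSD and 0.704% ± 0.406 in CTR, with ranges of 0.221% to 2.59% and 0.232% to 1.42%. Fibroblast, endothelial, smooth muscle, macrophage, atrial and skeletal muscle marker lists took 0.0856% or less each in every library. RSD 38 had the highest atrial share, 0.0486%, against 0.00915% to 0.0240% in CTR. It also had the highest skeletal muscle share, 0.0550%, against 0.0255% to 0.0455% in CTR. Of the 4 skeletal muscle rows found, 1 passed the filter on low values.

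AY172581.9 (ENSRNOG00000030478), the second most abundant row of its kind, had lowest, median and highest shares of 3.94%, 4.50% and 4.97% in RSD, against 3.22%, 3.84% and 4.87% in CTR. CTR 22 and CTR 27 were again the 2 highest controls. Its log2 fold change was 0.21 (95% interval −0.08 to 0.50, limma adjusted p = 0.724). Reads of AY172581.24 outnumbered those of AY172581.9 by a similar factor in every library, 5.18 ± 0.376 in RSD and 4.98 ± 0.355 in CTR, with 4.52 in CTR 23 as the lowest and 5.94 in RSD 33 as the highest value.

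The messenger RNA rows, summed, took 27.0% ± 1.70 of total CPM in RSD and 29.6% ± 3.58 in CTR (SD, n = 6 each). CTR 22 had the lowest sum of the 12 libraries, 24.2%, and CTR 24 the highest, 35.4%. Leaving out AY172581.24, the difference over the other 36 rows was −2.13 percentage points, between −3.05 without CTR 22 and −1.05 without CTR 24. The ratio of AY172581.24 to the summed Mt rows was 0.862 ± 0.108 in RSD and 0.688 ± 0.177 in CTR. Its highest value was 1.03 in RSD 33, followed by CTR 22, and its lowest was 0.506 in CTR 24.

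Cytochrome c oxidase, complex IV, passes electrons to oxygen, and its 3 largest subunits are made in mitochondria. Mt-co2, which carries the copper site that accepts electrons from cytochrome c, had lowest, median and highest shares of 3.80%, 3.95% and 4.43% in RSD, against 3.83%, 4.79% and 5.59% in CTR. Of the CTR libraries 5 lay above the highest RSD library, and CTR 22 lay near the bottom of the RSD range. The log2 fold change was −0.21 (95% interval −0.49 to 0.07, limma adjusted p = 0.709), and −0.28 without CTR 22 (limma adjusted p = 0.363, with 0.363 to 0.907 over all alternatives). Mt-co1, the catalytic subunit, had shares of 0.580%, 0.666% and 0.726% in RSD, against 0.555%, 0.803% and 0.848% in CTR. Here too 5 CTR libraries lay above the highest RSD library, and CTR 22 was the lowest of the 12. Its log2 fold change was −0.16 (limma adjusted p = 0.731). Mt-cox3 had shares of 2.15%, 2.78% and 3.03% in RSD, against 2.34%, 2.72% and 2.96% in CTR. Its log2 fold change of 0.02 turned to −0.022 with CPM as deposited.

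The membrane part of the ATP synthase contains a pair of mitochondrially made proteins. Mt-atp6, whose product forms the proton channel, had lowest, median and highest shares of 7.55%, 8.31% and 8.71% in RSD, against 7.41%, 8.65% and 10.2% in CTR (log2 fold change −0.06, limma adjusted p = 0.944). Mt-atp8, a small membrane subunit whose reading frame overlaps that of Mt-atp6, had shares of 0.707%, 1.17% and 1.57% in RSD, against 0.839%, 1.11% and 1.32% in CTR. For Mt-atp8 the RSD libraries lay on both sides of the controls. RSD 34, RSD 35 and RSD 39 stood above the highest CTR library and RSD 38 and RSD 40 below the lowest. The SD was 3704 CPM in RSD and 1644 CPM in CTR around means of 11418 and 11220 CPM. The ratio of Mt-atp6 to Mt-atp8 reads ran accordingly between 4.81 in RSD 39 and 11.8 in RSD 38.

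Complex I oxidises NADH, and its mitochondrially made subunits sit in the membrane arm. Mt-nd4l had lowest, median and highest values of 545, 690 and 967 CPM in RSD, against 593, 960 and 2131 CPM in CTR. The means were 712 ± 151 CPM in RSD and 1095 ± 546 CPM in CTR (SD, n = 6 each), with a log2 fold change of −0.48 (95% interval −0.91 to −0.05, limma adjusted p = 0.517). CTR 24 stood apart, since the next control, CTR 26, had 1146 CPM. Without CTR 24 the log2 fold change was −0.24 (limma adjusted p = 0.869). The unadjusted p was above 0.05 without CTR 24, CTR 26, CTR 27, RSD 33 or RSD 38, with either other filter on low values, and in DESeq2. Without CTR 22 it was −0.64 (limma adjusted p = 0.125), and over all alternatives the adjusted p ran between 0.125 and 0.869.

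Mt-nd3 had 0.815%, 0.878% and 0.970% in RSD, against 0.883%, 1.01% and 1.14% in CTR, with 4 CTR libraries above the highest RSD library (log2 fold change −0.15, limma adjusted p = 0.748). Mt-nd1 had 2.93%, 3.91% and 4.18% in RSD, against 3.14%, 3.82% and 4.71% in CTR, and a log2 fold change of −0.01 (limma adjusted p = 0.993). Mt-nd2 had 2.14%, 3.0% and 3.80% in RSD, against 2.38%, 3.27% and 4.43% in CTR, and a log2 fold change of −0.12 (limma adjusted p = 0.88). For both, CTR 24 was the highest library and the groups otherwise overlapped, and so they did for Mt-nd5 (log2 fold change −0.12). Mt-nd6, the 1 protein gene encoded on the opposite strand from the others, had 887, 980 and 1136 CPM in RSD, against 879, 990 and 1611 CPM in CTR. The highest value was that of CTR 22, in which most other Mt rows were low. Its log2 fold change was −0.03 (limma adjusted p = 0.967).

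Mt-cyb, the cytochrome b of complex III, had shares of 2.24%, 2.46% and 2.73% in RSD, against 2.11%, 2.80% and 3.74% in CTR. CTR 23, CTR 24 and CTR 27 lay above all RSD libraries and CTR 22 below them. The log2 fold change was −0.15 (95% interval −0.44 to 0.13, limma adjusted p = 0.798).

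**Figure D3:**
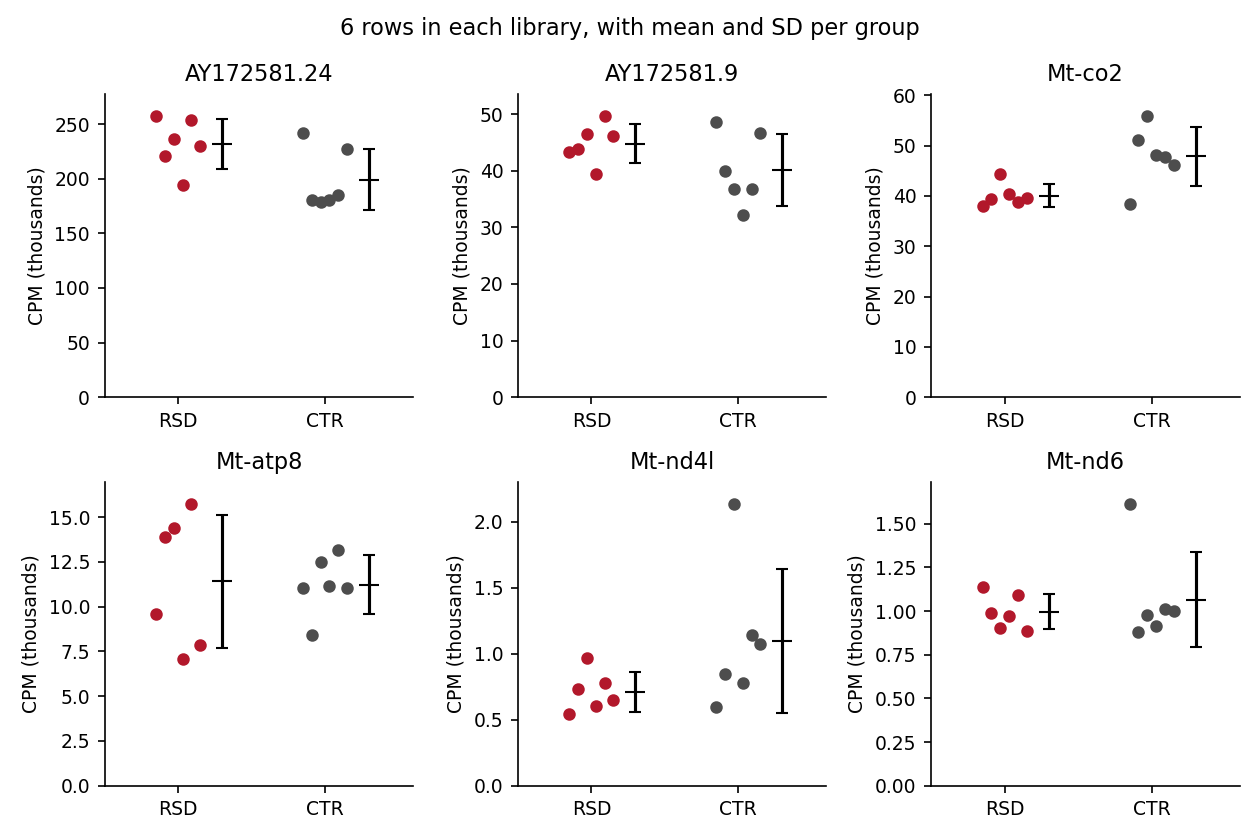
Level (kilo-CPM) of 6 mitochondrial rows in every library, RSD left of CTR, with mean and SD beside the points. For Mt-co2, 5 of 6 CTR libraries lie above the highest RSD library, for Mt-atp8 the RSD libraries lie on both sides of the CTR libraries, and 1 CTR library stands apart for Mt-nd4l (CTR 24) and for Mt-nd6 (CTR 22).

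The smaller AY172581 rows were high or low together in libraries of both groups. They are the 12 tested rows of that kind other than AY172581.24 and AY172581.9, with mean values of 4.20 CPM (AY172581.8) to 551 CPM (AY172581.18). In RSD 40 all 12 lay above their own median over the 12 libraries, in CTR 27 11 did and in CTR 23 10 did. In CTR 24 and CTR 25 it was 1 row each and in CTR 26 none. In RSD 34, RSD 35 and RSD 39 it was 8 rows each, in RSD 38 7, in CTR 22 4 and in RSD 33 2. CTR 27 and RSD 40 were each among the 3 highest libraries for 10 of the 12 rows. Row AY172581.18 had lowest, median and highest values of 399, 469 and 850 CPM in RSD, against 301, 383 and 1085 CPM in CTR, with CTR 27 highest. Row AY172581.12 had 58.6, 68.4 and 157 CPM in RSD, against 31.2, 69.9 and 174 CPM in CTR, with CTR 27 highest and CTR 24 lowest. None of the 12 passed, with limma adjusted p of 0.714 or more.

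Row AY172581.21 had 13.1, 23.5 and 30.8 CPM in RSD, against 14.4, 18.2 and 21.8 CPM in CTR, with 4 RSD libraries, RSD 40 among them, above the highest control and RSD 33 below the lowest (log2 fold change 0.29, limma adjusted p = 0.714). Row AY172581.4, too low to be tested, had 2.32, 4.29 and 8.28 CPM in RSD, against 0.62, 1.98 and 3.88 CPM in CTR. It rests on 2 to 27 reads per library, and 4 RSD libraries, RSD 40 among them, lay above the highest control. Row AY172581.6 had 2.57 ± 1.07 CPM in RSD and 3.13 ± 1.2 CPM in CTR.

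**Figure D4:**
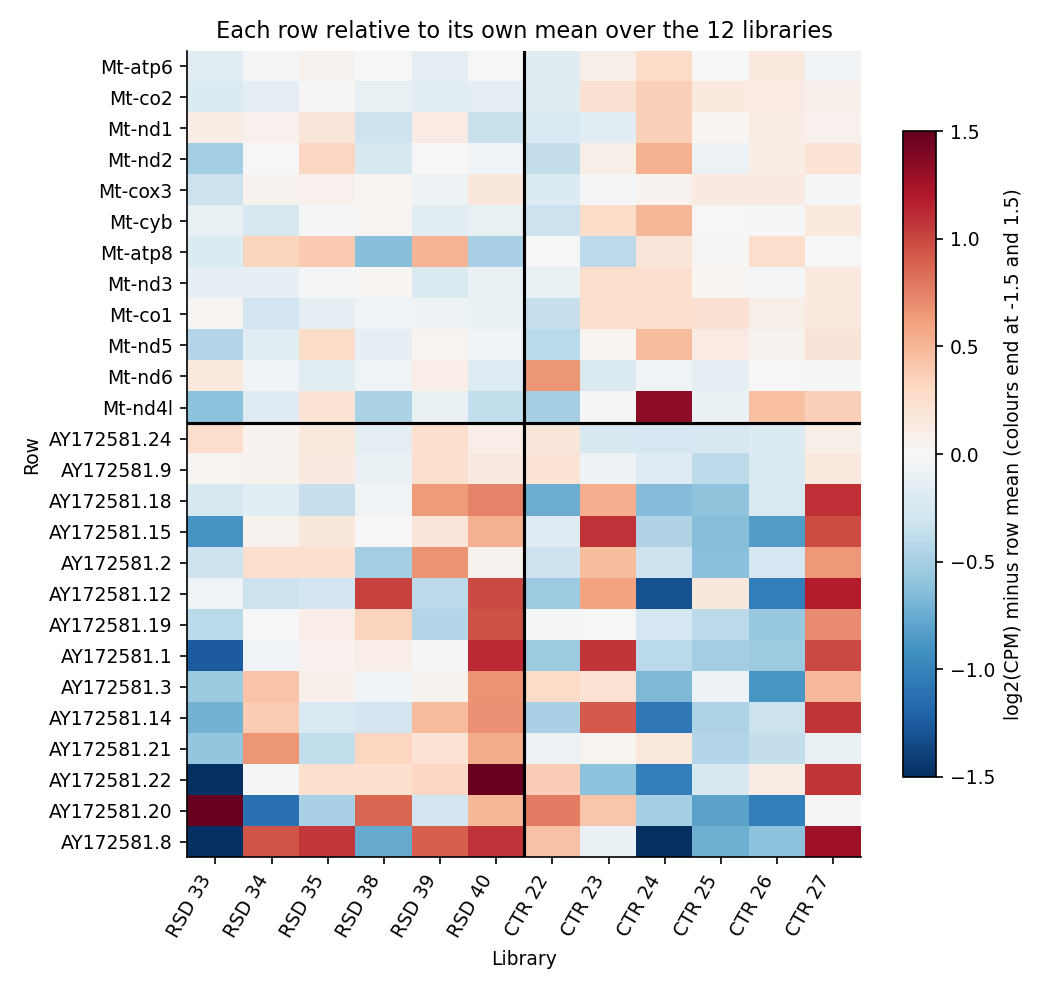
Log2 CPM of each tested row minus its own mean over the 12 libraries, Mt rows above the horizontal line and AY172581 rows below it, RSD libraries left of the vertical line. Most of the smaller AY172581 rows are high in RSD 40, CTR 27 and CTR 23, and the Mt rows are highest in CTR 24, where 7 of the 12 tested Mt rows have their highest value.

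The spread within groups holds differences between rats together with those of punching and library preparation, which cannot be told apart with 1 library per rat. The coefficient of variation within groups was 12.2% for AY172581.24 and 12.4% for AY172581.9, where counting alone gives 0.126% and 0.284%. Among the Mt rows it ran between 8.44% (Mt-nd3) and 38.3% (Mt-nd4l), with 0.599% and 1.94% from counting. Among the smaller AY172581 rows it ran between 25.1% (AY172581.21) and 64.4% (AY172581.8), with 12.9% and 28.0% from counting. Row AY172581.18 had a spread of 48.3% at 886 to 3250 reads per library, where counting gives 2.48%.

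**Figure D5:**
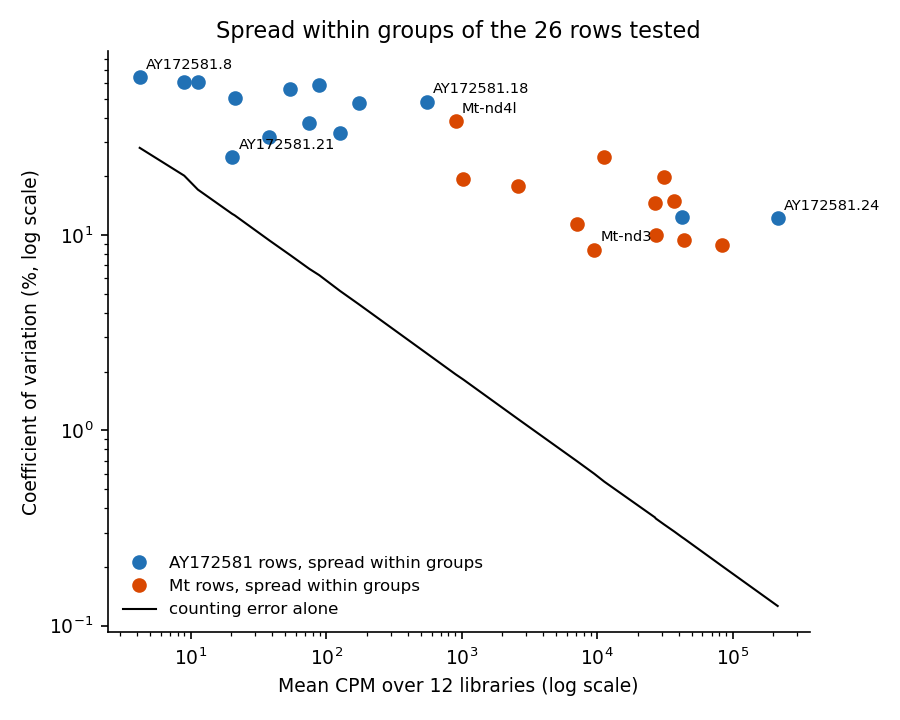
Coefficient of variation within groups (%, log scale) against mean CPM over the 12 libraries (log scale) for the 26 tested rows, with the line that counting error alone gives. The smaller AY172581 rows reach 64.4% and AY172581.24, the most abundant row, lies at 12.2%.

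The nuclear genome encodes the remaining subunits of the same complexes. Of 73 tested nuclear rows of complexes I, III, IV and ATP synthase, 58 lay below 0 and 15 above, with a median log2 fold change of −0.11. Over all genes tested 49.4% lay below 0. None of the 73 rows passed adjusted p 0.05 in limma, edgeR or DESeq2. At an unadjusted p under 0.05 there were 17 lower, against 4.47% of all genes tested, and 1 higher, against 3.89%. Together these were 24.7% of the 73 rows, against 8.36% of all genes tested. Complex IV had 11 of 13 rows below 0, a median of −0.29 and 6 rows lower at an unadjusted p under 0.05. Those 6 were 46.2% of its tested rows. They include the gene Cox6b1 under separate IDs, at log2 fold changes of −0.80 and −0.83. Uqcrb was also tested under separate IDs, and its row at −0.33 was among the 17 lower. The 73 rows share their libraries, so these counts describe the 12 libraries. Without CTR 22 calls also became more frequent over the whole table, where 41 of 7645 genes tested, or 0.536%, passed adjusted p 0.05 and 12.9% an unadjusted p under 0.05. In that fit the adjusted call was made for 10 of the 73 nuclear rows, and every other fit without 1 library made it for 0. The 4 rows with the smallest p were Cox6b1 (−0.80) and Cox6a1 (−0.42) of complex IV and Uqcrc1 (0.36) and Uqcrfs1 (−0.49) of complex III, each given as log2 fold change with limma adjusted p of 0.263 or more. Cox6b1 stands under more than 1 ID in the table. Without CTR 22 these 4 passed, with limma adjusted p of 0.00355, 0.0402, 0.0406 and 0.00849. Over all alternatives the adjusted p of the 4 ran between 0.00276 and 0.771.

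The summed Mt rows exceeded the summed nuclear rows of the same complexes by a factor of 6.48 ± 0.851 in RSD and 6.49 ± 0.766 in CTR (SD, n = 6 each), with 5.38 in RSD 38 as the lowest and 7.94 in CTR 24 as the highest value. For complex IV the Mt rows took 7.36% ± 0.425 and the nuclear rows 0.911% ± 0.0704 of CPM in RSD, against 8.28% ± 0.849 and 1.05% ± 0.107 in CTR. For complex I they took 7.89% ± 0.925 and 1.18% ± 0.110 in RSD, against 8.59% ± 1.36 and 1.27% ± 0.0973 in CTR.

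Nuclear genes that replicate, transcribe, process and translate the mitochondrial genome, with their nuclear regulators, had 40 tested members. Of these 21 lay above 0 and 19 below, with a median log2 fold change of 0.02, and 0 passed adjusted p 0.05 in limma, edgeR or DESeq2. At an unadjusted p under 0.05 there were 4 in limma, or 10% of the list, near the 8.36% of all genes tested. Lrpprc, which encodes a protein that binds and stabilises mitochondrial messenger RNAs, had the smallest p. It measured 210 ± 18.3 CPM in RSD and 271 ± 23.4 CPM in CTR (SD, n = 6 each). Groups did not overlap in deposited CPM for 24 of 7511 genes tested, or 0.32%. For Lrpprc all 6 RSD libraries (188 to 244 CPM) lay below the lowest CTR library (246 CPM), but 5 of 6 after division by TMM factors. The log2 fold change was −0.32 (95% interval −0.54 to −0.11, limma adjusted p = 0.435, with 0.124 to 0.786 over all alternatives), and without any 1 library it ran between −0.37 and −0.27.

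Slirp, the binding partner of Lrpprc, was looked up after these values had been seen and had a log2 fold change of −0.11 (limma adjusted p = 0.871). The other 3 genes at an unadjusted p under 0.05 were Mtrf1, a mitochondrial release factor, at −0.67, Trmt10c, a subunit of the enzyme that cuts the 5' end of mitochondrial transfer RNAs, at −0.45, and Ppargc1b, a transcriptional coactivator of mitochondrial genes, at 0.37. Their limma adjusted p was 0.435, 0.522 and 0.497.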

How the data were processed

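Messenger RNA of 12 left ventricle samples was read with the QuantSeq forward 3' kit from 100 ng of total RNA on a 100-cycle flow cell, per the labels' protocols. The authors deposited 1 table in CPM, and the names of its value columns all end in unique. Whether reads that fit more than 1 place were left out, for Mt-nd4 or the rows without a read, was not tested. STAR 2.6.0a, HTSeq 0.9.1, bcl2fastq, DESeq2 and the build rn6 stand in the submitters' processing notes, with no roles. Annotation release and strand setting: not given in the sources used here. No mitochondrial coordinates or sequences are printed.

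CPM steps gave whole reads: 100% of nonzero values lay within 0.1 read of a whole number. The main test was limma 3.58.1 (R 4.3.3) on log2(CPM + 1), each library first divided by its TMM factor (0.913 to 1.12), with the variance trend on and Benjamini-Hochberg adjustment over 7511 genes kept by filterByExpr (minimum count 10), two-sided. Fold changes are RSD over CTR on that scale, which understates changes of low rows. Alternatives used edgeR 4.0.16 (2 genes called in the whole table), DESeq2 1.42.0 and limma-voom on recovered reads, other scalings, pseudocounts and filters, and left out each library in turn. The share of the top row was tested by exact two-sided permutation (924 arrangements). Sums over rows have no p. Functions were tested on simulated data.

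Members and gene lists were chosen with earlier results of these data known. Described with values are rows with p under 0.05 and the 10 most abundant rows, and of other lists the 4 genes with the smallest p; further rows were described after their values had been seen. Intervals for reads cover counting error only.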

Additional observations from a re-analysis of the deposited data

Results flagged for a closer look

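Among 62 pairs of a group and a reported value, 1 library stood apart from the other 5 in 6 pairs, where chance gives about 3.1. For each, the distance between the extreme library and its nearest neighbour was divided by the whole range of the group (Dixon's ratio, called gap here), and exceeded the 95% critical value for 6 samples. In CTR, Mt-nd6 was highest in CTR 22 (1611 CPM, nearest 1012 CPM; gap 0.817), and Mt-co1 was lowest in CTR 22 (5550 CPM, nearest 7511 CPM; gap 0.669). Mt-nd4l was highest in CTR 24 (2131 CPM, nearest 1146 CPM; gap 0.641). AY172581.19 was highest in CTR 27 (117 CPM, nearest 71.7 CPM; gap 0.657). In RSD, 2 of the smaller AY172581 rows were highest in RSD 40, AY172581.1 (104.5 CPM, nearest 51.5 CPM; gap 0.63) and AY172581.22 (27.9 CPM, nearest 11.8 CPM; gap 0.633).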

How the results depend on the processing

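No paired analysis was possible because RSD and CTR share no replicate numbers. The count of mitochondrial rows called was 0 in every fit run, and so was that of the genes that express the mitochondrial genome. The nuclear subunits had 0 calls, except 10 without CTR 22 (range without 1 library 0 to 10) and 10 without CTR 22 and RSD 40, a pair chosen after seeing the data. The 2 genes called over the whole table became 0 with no filter, 1 with at least 50 reads in 6 libraries, 1 with limma-voom, 55 without CTR 22 and RSD 40, and 0 to 41 without 1 library (41 without CTR 22, 1 without CTR 25, CTR 26, RSD 35 or RSD 38, 0 without CTR 23, CTR 24, CTR 27, RSD 34 or RSD 40). The cause was not tested.

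The share of AY172581.24 in total CPM differed by 2.78 to 4.15 points without 1 library, and by 4.19 points without CTR 22 and RSD 40 (exact permutation p = 0.0238). As a share of mitochondrial reads it differed by 4.0 to 6.80 points without 1 library and by 6.78 points without that pair (exact permutation p = 0.0159). As a log2 ratio to the other mitochondrial rows, AY172581.24 differed by 0.32 over all 12 libraries (exact permutation p = 0.0476). That p was not among the 2 measures adjusted together. The ratio re-expresses the row's share of mitochondrial reads (exact permutation p = 0.0541) on another scale, so it is not a further measure. The summed share of all rows differed by 0.439 to 2.19 points without 1 library.

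Signs turned for rows near 0, none of them called. Mt-cox3 was −0.022 and Mt-atp8 −0.029 with CPM as deposited, and Mt-cox3 was −0.059 without CTR 22 and RSD 40. Without 1 library, Mt-atp6 ran between −0.11 and 0.019, Mt-nd1 between −0.076 and 0.083, Mt-cox3 between −0.031 and 0.074 and Mt-atp8 between −0.10 and 0.18. Depth limits Mt-nd4, AY172581.4 and AY172581.6, at 2 to 27 reads per library.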
